A study of Homo sapiens with 9 samples.

Results

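Untreated WA09 human embryonic stem cells were set against the same line after DNA damage and after differentiation, with both treatments pooled, to describe what marked the untreated pluripotent state and what both ways of disturbing it shared. WA09 is an established pluripotent line. The 3 arrays titled hESC-Pluripotent hold untreated cells, the 3 titled hESC-Damage hold cells kept for 5 h in DOX, the anthracycline doxorubicin, which causes DNA double-strand breaks, and the 3 titled hESC-Differentiation hold cells given retinoic acid (RA, 1 µM) for 2 days. These are 9 of the 9 arrays of the series, chosen by their titles. Per the labels' protocols no FGF was added to the RA medium, which sets the RA cells apart from the other cells by a growth factor as well. Per the labels, cells were at passages 32 to 38 and were grown either on irradiated mouse fibroblast feeders with FGF2 at 4 ng/ml or without feeders on Matrigel with FGF2 at 10 ng/ml, and which culture gave which array is not given in the sources used here. Each value is a log2 intensity of a probe set, and the pooled change is the mean of the DOX and RA group means minus the untreated mean, so a positive value is a rise with treatment. Of 54675 probe sets, 41091 named exactly 1 gene, and 1 probe set per gene gave 19775 genes.

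Pluripotent stem cells hold a network of transcription factors that includes POU5F1, SOX2 and NANOG, supported by FGF and by NODAL or activin signalling, while BMP signals and retinoids push the cells towards ectodermal, amniotic and other fates. DNA damage acts through p53, which stops the cycle through genes such as CDKN1A and can trigger apoptosis. ID proteins are direct BMP targets that block basic helix-loop-helix transcription factors.

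Across genes, Pearson's r between an untreated and a treated array was 0.987 to 0.993, and within a condition it was 0.996 to 0.998. The third untreated array stood apart from the other untreated arrays, with a limma array weight of 0.512 against 1.52 and 1.59. The 3′ minus 5′ difference of the GAPDH control probe sets, a check of RNA integrity, changed by 0.00288 between untreated and treated arrays (two-sided exact permutation p = 0.893; the smallest possible with 84 splits is 0.0119), that of ACTB by 0.0442 (p = 0.869) and the 18S level by 0.156 (p = 0.571). The 6 measured stem cell markers (NANOG, SOX2, LIN28A, LIN28B, DPPA4 and DNMT3B) lay above the median gene in untreated cells, whereas 0 of 3 neuroectoderm, 0 of 5 mesoderm and endoderm and 0 of 4 trophoblast and amnion markers did. POU5F1 has no probe set of its own here. The labels do not state whether replicate arrays came from independent cultures, so each p-value reflects only array-to-array spread, possibly technical. Folds from levels below the median gene (5.956) may understate the change, since no measure of background was used, and the number of arrays limits the precision.

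Treatment raised 686 genes and lowered 751 in the pooled comparison (limma, Benjamini-Hochberg adjusted p under 0.05), or 3.47% and 3.8% of all genes and 7.27% in either direction. Large rises outnumbered large falls: 95 genes (0.48%) rose and 28 (0.142%) fell at least 2-fold. Among the 686 higher genes, 354 (51.6%, or 1.79% of all genes) moved at least 0.5 on the log2 scale in that direction with DOX alone and 145 (21.1%, or 0.733% of all) with RA alone, while 62 (9.0%, or 0.314% of all) moved that far with both and kept all 3 untreated arrays below all 6 treated arrays. Among the 751 lower genes, 247 (32.9%, or 1.25% of all) moved with DOX alone, 126 (16.8%, or 0.637%) with RA alone and 74 (9.9%, or 0.374%) with both, where all 3 untreated arrays lay above all 6 treated arrays. Some of those counted for a single treatment moved the opposite way with the other. A further 119 higher and 302 lower genes (0.602% and 1.53% of all) reached 0.5 with neither treatment, and 6 and 2 (0.0303% and 0.0101%) reached it with both but had overlapping arrays. Counted over all 41091 probe sets of 1 gene, 872 (2.12%) were higher and 822 (2%) lower. A separate fit of all probe sets but controls called 32 (1.78%) higher and 19 (1.05%) lower of those naming several genes. Of those naming none it called 78 (0.665%) higher and 38 (0.324%) lower. Of all genes, 7.13% kept the untreated arrays wholly on one side, with 4.55% above and 2.58% below the treated arrays. The DOX and RA changes share the 3 untreated arrays, so these counts are a description and no test of overlap was made. When the 6 treated arrays were fitted as 1 group, so that the gap between treatments counted as spread, 42 genes were higher and 76 lower, among them 29 of the 62 and 38 of the 74. Without the first untreated array 454 genes were higher and 321 lower, without the second 460 and 312, and without the third 577 and 903.

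**Figure D1:**
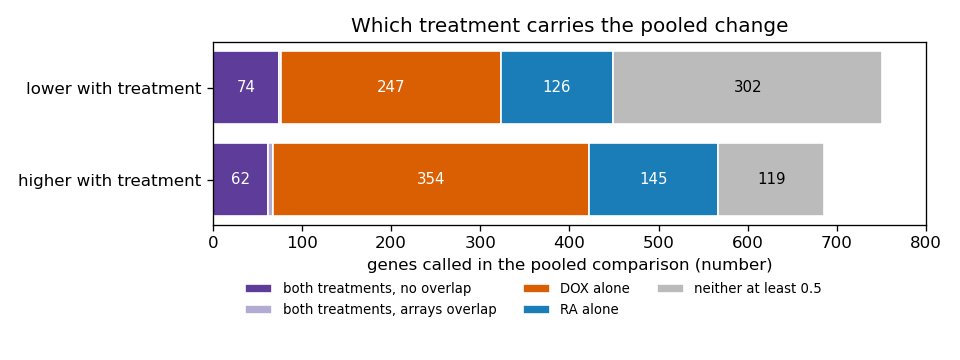
Horizontal bars show the number of genes called in the pooled comparison, 1 bar for each direction, split by which treatment moved the gene at least 0.5 on the log2 scale in that direction. Genes moved by both treatments number 62 of 686 higher and 74 of 751 lower, and DOX alone holds 354 and 247.

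Genes that rose with both treatments included ID proteins, transcription factors of surface ectoderm and trophoblast, and secreted and matrix genes. ADM, which encodes the vasodilating peptide adrenomedullin, stood at 9.66, 9.64 and 9.47 on the untreated arrays, 11.90, 11.94 and 11.92 after DOX and 11.63, 11.69 and 11.89 after RA. All treated arrays were above all untreated ones, and the DOX and RA arrays lay close together. Its pooled change was 4.71-fold (2.24 ± 0.07 SE, adjusted p = 4.9e-08), made of 2.33 after DOX and 2.15 after RA, and RA differed from DOX by −0.18 (95% interval −0.37 to 0.0034, adjusted p = 0.16). ID4 stood at 8.11, 8.09 and 7.87 on the untreated arrays, 9.72, 9.78 and 9.61 after DOX and 10.20, 10.52 and 10.27 after RA. It rose by 1.68 after DOX and 2.30 after RA (pooled 1.99 ± 0.09 SE, adjusted p = 3.9e-07), with RA above DOX by 0.63 (95% interval 0.41 to 0.85, adjusted p = 0.0011). ID2 stood at 9.34, 9.43 and 8.90 on the untreated arrays, 10.47, 10.46 and 10.30 after DOX and 10.73, 10.94 and 10.59 after RA. In the pooled comparison, ID2 changed by 1.36 ± 0.12 SE, adjusted p = 4.3e-05. ID3 stood at 9.31, 9.46 and 9.28 on the untreated arrays, 10.60, 10.37 and 10.33 after DOX and 11.73, 11.60 and 11.37 after RA. Pooled over both treatments, ID3 changed by 1.65 ± 0.09 SE, adjusted p = 2.2e-06. Its rise after RA (2.22) exceeded that after DOX (1.08) by 1.13 (95% interval 0.90 to 1.37, adjusted p = 2.7e-05). The fourth member, ID1, rose by 0.75 in the pooled comparison, with 0.49 after DOX and 1.01 after RA, just short of 0.5 in the former.

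The promoters of ADM and ID4, chosen as a ligand and an ID gene among the genes with the largest rises, are printed from RefSeq (GRCh38.p14), from 250 bases before to 50 after the annotated start, with ADM at chr11:10304823-10305122 on the plus strand and ID4 at chr6:19837120-19837419 on the plus strand. Capitals mark matches on either strand to 7 motifs, the GC box GGGCGG, the CCAAT box CCAAT, the TATA box TATAAA, the E-box CACGTG, the CRE (its letters TGACGTCA), the AP-1 site TGANTCA and the BMP-linked element GGCGCC, where neighbouring matches can run together.
ADM: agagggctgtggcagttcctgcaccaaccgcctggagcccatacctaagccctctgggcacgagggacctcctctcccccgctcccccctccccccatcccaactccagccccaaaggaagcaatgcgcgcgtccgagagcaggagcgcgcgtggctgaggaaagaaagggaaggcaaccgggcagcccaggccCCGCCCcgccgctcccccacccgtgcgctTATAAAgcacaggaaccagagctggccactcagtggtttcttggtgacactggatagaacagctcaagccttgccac
ID4: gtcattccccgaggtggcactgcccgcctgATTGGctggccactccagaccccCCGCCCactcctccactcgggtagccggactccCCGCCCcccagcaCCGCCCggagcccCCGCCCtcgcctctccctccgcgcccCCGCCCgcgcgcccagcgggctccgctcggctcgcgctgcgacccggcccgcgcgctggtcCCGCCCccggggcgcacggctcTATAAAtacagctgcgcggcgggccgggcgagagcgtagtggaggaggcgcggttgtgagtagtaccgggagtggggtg
ADM holds 1 TATA box and 1 GC box, and ID4 holds 1 TATA box, 1 CCAAT box and 6 GC boxes. A TATA box was present in 8.8% of the 15384 promoters of tested genes and in 6 of the 44 found for genes that rose with both treatments (13.6%). A GC box was present in 58.9% of all and in 30 of the 44 (68.2%). GGCGCC was in 25.6% of all, in 9 of the 44, and in neither printed promoter.

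Some regulators of epithelial and trophoblast identity rose with both treatments, several of them more after RA. GATA3, a transcription factor of trophoblast and surface ectoderm, stood at 4.91, 4.91 and 4.96 on the untreated arrays, 5.96, 6.54 and 6.29 after DOX and 8.21, 8.50 and 7.66 after RA. The groups did not overlap, and the rise after RA (3.20) was larger than after DOX (1.34), by 1.86 (95% interval 1.43 to 2.29, adjusted p = 5.3e-05). GATA2 rose by 0.87 and 1.11 after DOX and RA (pooled 0.99 ± 0.12 SE, adjusted p = 4.7e-04), on 1 of its 3 probe sets. TFAP2A rose by 0.85 after DOX and 4.55 after RA (pooled 2.70 ± 0.09 SE, adjusted p = 4.7e-08), again on 1 of 3 probe sets, and the related gene TFAP2C rose by 0.69 and 1.27 (pooled 0.98 ± 0.11 SE, adjusted p = 2.1e-04). The grainyhead factor GRHL3, which acts in epidermis, stood at 4.86, 5.61 and 4.44 on the untreated arrays, 6.83, 6.81 and 7.0 after DOX and 8.69, 8.59 and 8.39 after RA. In the pooled comparison, GRHL3 changed by 2.75 ± 0.20 SE, adjusted p = 1.4e-05. The epithelial ETS factor ELF3 stood at 6.21, 6.17 and 6.39 on the untreated arrays, 7.53, 7.38 and 7.45 after DOX and 7.49, 7.79 and 7.33 after RA. The changes were alike (1.20 and 1.28), a difference of 0.08 (95% interval −0.16 to 0.33, adjusted p = 0.67), and 3 of its 3 probe sets passed the test. The epithelial zinc finger gene OVOL1 (1.26 and 0.65) and the tight junction gene CLDN4 (0.59 and 1.61), singled out after their values were seen, rose too. CLDN4 was the only epithelial junction gene on that list to rise with both treatments. Of its 17 measured members 2 were higher and 2 lower in the pooled comparison, with a median of −0.08. CDH1 (0.07) and EPCAM (−0.18) did not pass. With the mean of all probe sets the pooled change was 0.36 in GATA2, 0.99 in TFAP2A and 0.59 in CLDN4, and without x_at and s_at probe sets it was 1.0 in GATA3. The list of trophoblast and amnion genes had 9 of 18 measured members higher and 0 lower in the pooled comparison, against 3.47% and 3.8% of all genes, with a median change of 0.44 against −0.0047 over all genes. The defining trophoblast and amnion markers CDX2, GCM1, CGA and ISL1 did not pass the test and lay below the median gene in untreated cells, with ISL1 at 0.52 (adjusted p = 0.07). Among 15 BMP targets 9 were higher and 1 lower, with a median of 0.75, and 6 of them rose with both treatments (ID2, ID3, ID4, BAMBI, GATA2 and GATA3). BAMBI, a pseudoreceptor that dampens BMP signalling, rose by 0.65 after DOX and 1.63 after RA, while HEY1, which NOTCH also induces, was the member that fell (pooled −0.32 ± 0.07 SE, adjusted p = 0.022). GATA2 and GATA3 stand on both of these lists, so the counts are not separate. These lists and those below were chosen with earlier results of these data known, so their counts are descriptions.

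Other genes that rose with both treatments act at the cell surface, in the matrix or as secreted ligands. HAS2, which makes hyaluronan, stood at 5.18, 5.45 and 4.98 on the untreated arrays, 6.97, 7.0 and 6.91 after DOX and 9.95, 10.07 and 10.12 after RA. It rose 9.85-fold in the pooled comparison (3.30 ± 0.09 SE, adjusted p = 2.3e-08), and the RA arrays lay above the DOX arrays by 3.08 (95% interval 2.85 to 3.32, adjusted p = 1.4e-08). CFTR, a chloride channel, stood at 4.84, 4.64 and 4.78 on the untreated arrays, 6.37, 5.99 and 6.31 after DOX and 6.25, 5.99 and 6.98 after RA. Pooled over both treatments, CFTR changed by 1.56 ± 0.18 SE, adjusted p = 3.4e-04, but 1 of its 6 probe sets passed the test. The 4-1BB ligand gene TNFSF9 changed by 1.07 and 1.08 after DOX and RA (pooled 1.08 ± 0.10 SE, adjusted p = 5.0e-05), and the adhesion receptor gene ADGRG1 by 1.01 and 1.11 (pooled 1.06 ± 0.18 SE, adjusted p = 0.0041). ERRFI1, an inhibitor of the EGF receptor, rose by 0.84 and 1.23, and the WNT receptor gene FZD10 by 0.85 and 1.90; both were singled out after their values were seen. The uncharacterised gene C11orf96 led the group by the smaller of its 2 changes (2.82 and 2.16, pooled 2.49 ± 0.21 SE, adjusted p = 4.3e-05), on 1 of its 2 probe sets, and without probe sets of suffixes x_at and s_at it was at −0.047. CSRNP1 rose by 1.83 and 0.90 (pooled 1.36 ± 0.14 SE, adjusted p = 1.2e-04). The collagen gene COL1A1 stood at 10.32, 10.45 and 10.33 on the untreated arrays, 11.32, 11.61 and 11.42 after DOX and 11.34, 11.44 and 11.32 after RA. In the pooled comparison, COL1A1 changed by 1.04 ± 0.07 SE, adjusted p = 1.4e-05. As a marker of fibroblasts it was read beside the 7 other fibroblast and stromal markers, whose values moved less: COL3A1 was at 0.41 (adjusted p = 0.017), and COL1A2, LUM, DCN, THY1, PDGFRB and POSTN lay between −0.03 and 0.09 and did not pass. The mean of the 8 markers per array ran from 6.35 to 6.43 in untreated, 6.62 to 6.71 in DOX and 6.45 to 6.57 in RA cells, with LUM, DCN, PDGFRB, POSTN and COL3A1 below the median gene. With the mean of all probe sets the pooled change was 0.33 in CFTR, 0.56 in ADGRG1 and 0.58 in COL1A1, and COL3A1 (0.16) lost its call. In bulk RNA a change in the share of a cell type and a change of RNA per cell cannot be told apart.

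**Figure D2:**
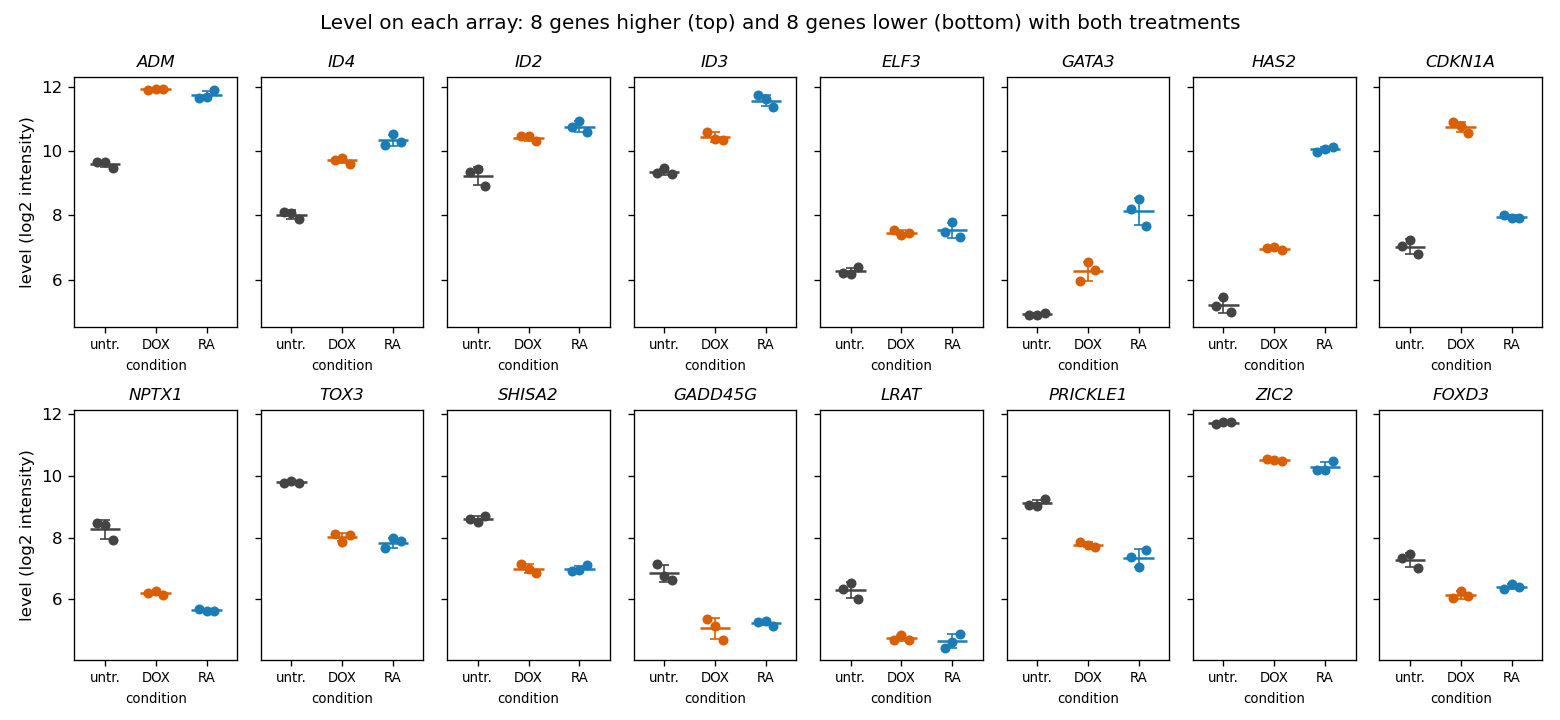
Points are the 9 arrays, as log2 intensity against condition, with the group mean (line) and SD (bar) of 3 arrays, for 8 genes that rose (top row) and 8 that fell (bottom row) with both treatments. In every panel the untreated arrays lie wholly on one side of the treated arrays, as the rule that chose these genes required. The DOX and RA arrays also do not overlap in ADM, ID4, ID2, ID3, GATA3, HAS2, CDKN1A, NPTX1, PRICKLE1, ZIC2 and FOXD3. Among these the gaps are widest in ID3, GATA3, HAS2 and CDKN1A.

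Genes that were highest in untreated cells and fell with both treatments included neural and patterning genes, receptors and a retinol enzyme. NPTX1, a neuronal pentraxin gene, stood at 8.48, 8.41 and 7.91 on the untreated arrays, 6.22, 6.28 and 6.16 after DOX and 5.68, 5.63 and 5.63 after RA. The untreated arrays were all above the treated ones, and the pooled fall was 5.05-fold (−2.34 ± 0.11 SE, adjusted p = 5.5e-07), with RA below DOX by −0.57 (95% interval −0.85 to −0.29, adjusted p = 0.0075). TOX3, an HMG-box factor gene, stood at 9.78, 9.84 and 9.78 on the untreated arrays, 8.13, 7.87 and 8.08 after DOX and 7.65, 7.98 and 7.88 after RA. Pooled over both treatments, TOX3 changed by −1.87 ± 0.08 SE, adjusted p = 4.7e-07. SHISA2, an inhibitor of WNT and FGF receptor maturation, stood at 8.61, 8.51 and 8.70 on the untreated arrays, 7.13, 7.0 and 6.84 after DOX and 6.92, 6.94 and 7.11 after RA. Its falls after DOX (−1.61) and RA (−1.62) were close, with a difference of −0.0023 (95% interval −0.21 to 0.20, adjusted p = 0.99) and a pooled change of −1.62 ± 0.08 SE, adjusted p = 8.7e-07. LRAT, which esterifies retinol for storage, stood at 6.35, 6.52 and 6.03 on the untreated arrays, 4.69, 4.86 and 4.70 after DOX and 4.44, 4.61 and 4.89 after RA. In the pooled comparison, LRAT changed by −1.60 ± 0.12 SE, adjusted p = 1.7e-05. Its DOX and RA falls differed by −0.10 (95% interval −0.41 to 0.20, adjusted p = 0.67). All treated arrays of LRAT lay below the median gene (5.956), where low signal limits a comparison of the falls. LRAT was the only member of the retinoid list that fell with both treatments, among 21 measured members of which 8 were higher and 2 lower. GADD45G, a growth arrest gene, stood at 7.15, 6.74 and 6.64 on the untreated arrays, 5.35, 5.15 and 4.70 after DOX and 5.26, 5.31 and 5.15 after RA. Pooled over both treatments, GADD45G changed by −1.69 ± 0.14 SE, adjusted p = 3.9e-05.

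The promoters of SHISA2 and LRAT, whose falls were alike in size under both treatments, are printed in the same way, SHISA2 from chr13:26051967-26052266 on the minus strand and LRAT from chr4:154743750-154744049 on the plus strand, with the same capitals. The LRAT window lies inside the span of its gene, which starts at 154740838, so it is not set by that start.
SHISA2: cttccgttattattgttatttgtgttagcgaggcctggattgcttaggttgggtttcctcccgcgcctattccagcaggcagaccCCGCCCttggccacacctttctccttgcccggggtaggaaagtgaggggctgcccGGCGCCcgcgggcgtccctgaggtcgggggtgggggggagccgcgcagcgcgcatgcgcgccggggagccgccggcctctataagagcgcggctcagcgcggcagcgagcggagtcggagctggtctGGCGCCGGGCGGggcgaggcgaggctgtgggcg
LRAT: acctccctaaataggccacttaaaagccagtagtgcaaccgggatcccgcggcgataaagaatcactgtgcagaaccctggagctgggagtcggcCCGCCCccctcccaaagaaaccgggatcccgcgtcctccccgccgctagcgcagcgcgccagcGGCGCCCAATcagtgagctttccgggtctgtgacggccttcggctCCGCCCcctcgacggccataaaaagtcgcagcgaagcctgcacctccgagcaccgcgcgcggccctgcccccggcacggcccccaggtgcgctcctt
SHISA2 holds 2 GC boxes and 2 GGCGCC elements, and LRAT holds 2 GC boxes, 1 CCAAT box and 1 GGCGCC element, and neither holds TATAAA. Among the 58 promoters found for genes that fell with both treatments, GGCGCC was in 18 (31.0%), a GC box in 35 (60.3%), a CCAAT box in 16 (27.6%, against 36.1% of all) and a TATA box in 3 (5.2%). The E-box was in 6.9% of them and 2.3% of the promoters that rose, against 8.9% of all, and the CRE in 5.2% and 0, against 2.7%. The AP-1 site was in 5.2% and 4.5%, against 5.8%.

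Other falling genes encode transcription factors, enzymes, transporters, receptors and noncoding RNAs. ZIC2, a zinc finger factor of early neural development, stood at 11.68, 11.74 and 11.75 on the untreated arrays, 10.55, 10.52 and 10.48 after DOX and 10.18, 10.19 and 10.47 after RA. In the pooled comparison, ZIC2 changed by −1.32 ± 0.07 SE, adjusted p = 2.0e-06. FOXD3, a pluripotency and neural crest factor, stood at 7.33, 7.46 and 7.02 on the untreated arrays, 6.03, 6.28 and 6.12 after DOX and 6.35, 6.50 and 6.40 after RA. Pooled over both treatments, FOXD3 changed by −0.99 ± 0.10 SE, adjusted p = 1.0e-04, with 1 of its 3 probe sets past the test. PRICKLE1, a planar cell polarity gene, fell by 1.34 and 1.77 after DOX and RA (pooled −1.55 ± 0.11 SE, adjusted p = 1.4e-05), with 3 of 4 probe sets past the test. The noncoding RNA gene LINC01844 fell by 1.79 and 3.12 (pooled −2.45 ± 0.13 SE, adjusted p = 1.3e-06), and CUZD1 by 1.39 and 2.54 (pooled −1.97 ± 0.16 SE, adjusted p = 3.3e-05). SORBS2, which encodes an adaptor of the actin cytoskeleton, fell by 0.99 and 2.49, and the secreted hormone gene STC1 by 0.98 and 1.80; in both genes RA lay below DOX, by −1.50 (95% interval −1.85 to −1.16, adjusted p = 5.3e-05) and −0.82 (95% interval −1.18 to −0.45, adjusted p = 0.0045). The glutamate transporter gene SLC1A1 went the other way, falling more after DOX (−1.73) than after RA (−0.98), with a difference of 0.75 (95% interval 0.55 to 0.95, adjusted p = 1.6e-04). GLCE, an enzyme of heparan sulfate synthesis, MGARP, a mitochondrial protein gene, and NPFFR2, a neuropeptide receptor gene, changed by −1.36, −1.10 and −1.18 in the pooled comparison, with adjusted p-values of 0.0017, 1.5e-05 and 2.1e-04. Related genes appeared together in this group, chosen here after their values were seen. TOX, a relative of TOX3, and its divergent noncoding neighbour TOX-DT changed by −0.98 and −0.89, while TOX2 and TOX4 were at −0.06 and −0.14 and did not pass. The ligand gene TNFSF11 (RANKL) and its receptor gene TNFRSF11A (RANK) changed by −1.07 and −1.01 (adjusted p = 2.8e-05 and 1.6e-05), while the decoy receptor gene TNFRSF11B was at 0.13 and did not pass. TNFSF11 rested on 1 of its 2 probe sets, with the other at −0.15. Its level was below the median gene even in untreated cells (5.0). The VEGF receptor genes FLT1 and KDR changed by −0.93 and −0.59 (adjusted p = 1.5e-05 and 0.019), and their ligand gene VEGFA by 0.53 (adjusted p = 0.0012). KDR lost its call without the first (−0.50) or the second (−0.48) untreated array. The caspase gene CASP9, the initiator of the mitochondrial death pathway, fell by 0.53 after DOX and 0.84 after RA (pooled −0.68 ± 0.11 SE, adjusted p = 0.0029), but it was at −0.10 and not called without x_at and s_at probe sets. With the mean of all probe sets the pooled change was −0.47 in FOXD3, −0.90 in SORBS2, −0.91 in STC1, −0.63 in SLC1A1 and 0.21 in VEGFA.

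Within the group that moved with both treatments, the sizes often differed. Of the 62 rising genes, 36 differed between RA and DOX (adjusted p under 0.05, called for 21.2% of all genes), 16 with the larger rise after DOX and 20 after RA. Of the 74 falling genes, 30 differed, 8 with the larger fall after DOX and 22 after RA. For 16 rising and 28 falling genes the 95% interval of the difference lay within 0.5 on either side of 0. The median rise was 0.94 after DOX and 0.89 after RA, and the median falls were −0.71 and −0.88, all of them values that the selection used. Each treatment alone passed the test in 58 of the 62 and 66 of the 74, where DOX and RA called 5.67% and 3.16% of all genes higher and 9.6% and 3.32% lower. The rule asked for at least 0.5 with each treatment, so these passes were largely built in and add no support. Both changes reached 1 on the log2 scale in 12 rising and 12 falling genes. At the edge of the 0.5 threshold, ETV7 (0.89 after DOX, 0.51 after RA) and ROR1 (−0.51, −0.83) were just inside, and BBS9 (1.14, 0.498) and HESX1 (−0.499, −0.61) just outside. Of genes with several probe sets, another probe set was called the same way in 20 of 40 rising and 21 of 45 falling genes, and 0 had a probe set called the opposite way.

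**Figure D3:**
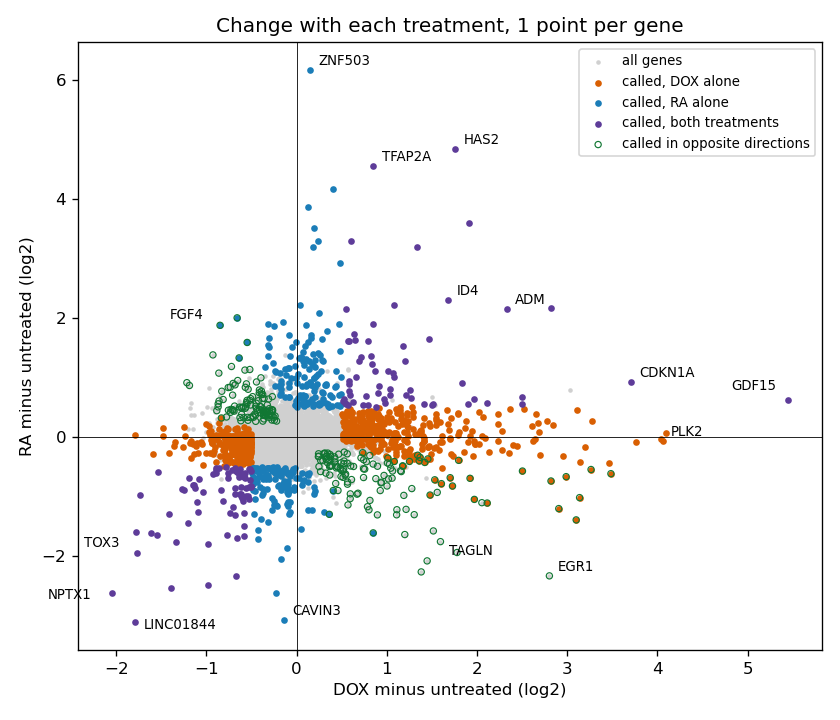
Each point is a gene, with its log2 change after DOX on the x axis and after RA on the y axis, both against the same 3 untreated arrays. Genes called with both treatments lie in the upper right and lower left, ADM, ID4 and TOX3 near the diagonal, and genes called in opposite directions, such as EGR1 and FGF4, lie in the other 2 corners.

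Among genes that rose with both treatments, 7 were p53 targets, and each rose more after DOX. CDKN1A, the cell cycle inhibitor p21, stood at 7.06, 7.24 and 6.79 on the untreated arrays, 10.89, 10.76 and 10.56 after DOX and 8.0, 7.91 and 7.91 after RA. The RA arrays lay above the untreated arrays and far below the DOX arrays, so the changes were 3.71 after DOX and 0.92 after RA, with RA minus DOX at −2.80 (95% interval −3.05 to −2.54, adjusted p = 4.9e-08). The p53 list held 33 measured genes, of which 24 were higher and 0 lower in the pooled comparison, against 3.47% and 3.8% of all genes, with a median change of 1.47 after DOX and 0.25 after RA. After RA alone 11 rose and 2 fell, against 3.16% and 3.32% of all genes, and 7 met the rule for both treatments, against 0.314%. These were CDKN1A, the secreted factor GDF15 (5.45 after DOX, 0.62 after RA), the RNA-binding protein gene ZMAT3 (2.50, 0.67), the sestrin SESN1 (1.97, 0.64), the growth arrest gene GADD45A (2.50, 0.56), the AKT inhibitor PHLDA3 (1.90, 0.56) and the translesion polymerase POLH (2.11, 0.56, the latter with an adjusted p of 0.066). RA minus DOX was below 0 and called in each of the 7, from −4.83 in GDF15 to −1.33 in SESN1. MDM2, whose product ubiquitinates p53, rose by 2.02 after DOX and by 0.42 after RA (adjusted p = 0.016), under the 0.5 threshold in the latter, and was at 0.71 pooled with the mean of all probe sets. GDF15 rested on 1 of its 3 probe sets, and without x_at and s_at probe sets it was at 0.23 and not called. MIR34A, the gene of a p53-induced microRNA, met the rule as well and was singled out for its sequence: it stood at 6.57, 6.24 and 6.23 on the untreated arrays, 7.97, 7.69 and 7.90 after DOX and 6.95, 6.93 and 6.79 after RA. It rose by 1.51 after DOX and 0.54 after RA (pooled 1.02 ± 0.09 SE, adjusted p = 6.2e-05). The probe set reads a transcript assigned to this gene and measures neither mature arm, which RefSeq (GRCh38.p14) places on the minus strand of chromosome 1, with the seed, bases 2 to 8, in capitals here.
hsa-miR-34a-5p: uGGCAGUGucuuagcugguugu
hsa-miR-34a-3p: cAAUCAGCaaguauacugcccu

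Genes carried by a single treatment numbered 499 of the 686 higher and 373 of the 751 lower calls, and those with the largest pooled changes are named here in turn. In them the other treatment missed 0.5 in that direction, though it could move the gene the same way by less. PLK2, a p53-induced kinase gene, stood at 6.27, 6.0 and 5.83 on the untreated arrays, 9.99, 10.23 and 10.04 after DOX and 5.95, 5.99 and 5.93 after RA, so that its pooled change of 1.99 averaged 4.06 and −0.07. BHLHE40, MAFF, NPPB and FOSL1, the others of the 5 largest pooled rises carried by DOX, changed by 4.09, 4.04, 3.76 and 3.11 after DOX and by 0.07, −0.04, −0.09 and 0.46 after RA. By pooled change, genes lowered by DOX alone were led by the histone gene H2AC6 (−1.59 against −0.29 after RA), the opsin gene OPN3 (−1.79, 0.03), ARHGAP28 (−1.41, −0.27), RHOBTB3 (−1.17, −0.36) and PPP1R16B (−1.04, −0.47). ZNF503, a zinc finger repressor, stood at 3.69, 3.75 and 3.47 on the untreated arrays, 3.53, 3.87 and 3.96 after DOX and 9.55, 9.97 and 9.90 after RA. The untreated and DOX arrays overlapped and the RA arrays lay far above both, on 1 of its 4 probe sets. MEIS2, SKAP2, OLIG3 and HHEX followed by pooled change, at 4.18, 3.87, 3.50 and 3.29 after RA and 0.41, 0.12, 0.19 and 0.24 after DOX. By pooled change, genes lowered by RA alone were led by the caveola coat gene CAVIN3 (−3.08 against −0.14 after DOX), the NODAL inhibitor LEFTY1 (−2.63, −0.23), the neurotensin gene NTS (−2.06, −0.17), RASGRF2 (−1.71, −0.42) and the homeobox gene OTX2 (−1.56, −0.43). The retinoic acid receptor gene RARB (2.21 after RA, 0.03 after DOX) and CYP26A1, which degrades RA (1.64, 0.28), also belonged to the RA-carried genes. With the mean of all probe sets the pooled change was 1.11 in BHLHE40, −0.42 in ARHGAP28, −0.40 in RHOBTB3, 0.77 in ZNF503, 1.23 in SKAP2 and 0.32 in RARB, and without x_at and s_at probe sets it was 0.95 in HHEX.

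Some genes moved with both treatments but in opposite directions, so that the pooled mean can hide them: 36 of these 244 genes were called in the pooled comparison. DOX raised and RA lowered 132 genes (0.668% of all), and DOX lowered and RA raised 112 (0.566%), each direction called by limma. EGR1, an immediate-early factor gene, stood at 8.89, 9.05 and 8.39 on the untreated arrays, 11.67, 11.59 and 11.47 after DOX and 6.40, 6.27 and 6.64 after RA. The 3 groups did not overlap, yet the pooled change was 0.23 (adjusted p = 0.40) from 2.80 and −2.34, but 0.57 and called with the mean of its probe sets. FGF4, a ligand that stem cells make, stood at 7.13, 7.24 and 6.95 on the untreated arrays, 6.38, 5.92 and 6.47 after DOX and 8.99, 9.13 and 8.82 after RA, with −0.85 after DOX and 1.88 after RA, and its pooled call (0.51) was lost in 7 of the 9 fits without 1 array. NODAL, the ligand of the pathway that holds pluripotency, stood at 7.14, 7.12 and 7.36 on the untreated arrays, 8.06, 8.11 and 8.13 after DOX and 5.79, 5.82 and 6.06 after RA, with a pooled change of −0.21 (adjusted p = 0.17) from 0.90 and −1.31. Among the lists, actin and matricellular genes had the most such members: 10 of 19 actin and matricellular genes were called in opposite directions, 18 rising after DOX and 10 falling after RA, against 5.67% and 3.32% of all genes. The smooth muscle gene TAGLN (1.59, −1.76), the caveolin gene CAV1 (1.45, −2.09), the annexin gene ANXA1 (1.78, −1.95) and the collagen gene COL12A1 (1.52, −1.58) led this direction, DOX given before RA, and TAGLN had a pooled change of 0.65 when probe sets of suffixes x_at and s_at were left out, against −0.08. In the other direction LPAR3 (−0.93, 1.38), STON1 (−1.22, 0.91), MAML3 (−1.19, 0.86) and INHBE (−0.86, 1.07) led beside FGF4. The list of NODAL and activin targets had 4 of 10 members called in opposite directions, with a median of 0.20 after DOX and −0.52 after RA.

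Of the 6 measured markers of the untreated state, SOX2 alone passed the pooled test. NANOG stood at 11.25, 11.24 and 11.43 on the untreated arrays, 11.05, 11.28 and 11.13 after DOX and 10.92, 11.03 and 10.96 after RA. Its pooled change was −0.25 (95% interval −0.41 to −0.09, adjusted p = 0.069) and did not pass. SOX2 fell by 0.28 (adjusted p = 0.032), most of it after DOX (−0.46, against −0.10 after RA), and it lost the call in 6 of the 9 fits without 1 array, at −0.26 to −0.29. LIN28A was at 0.08 (95% interval −0.10 to 0.25), LIN28B at −0.19 (−0.33 to −0.06), DPPA4 at −0.01 (−0.19 to 0.16) and the DNA methyltransferase gene DNMT3B at 0.07 (−0.05 to 0.20), and none of these 4 passed. Of 27 measured pluripotency genes 2 were higher and 5 lower, against 3.47% and 3.8% of all genes, with a median change of −0.02, and ZIC2 and FOXD3 were those that fell with both treatments by the 0.5 rule. The pooled median averages unlike changes. After DOX 0 rose and 8 fell, against 5.67% and 9.6% of all genes, with a median of −0.15. After RA 4 rose and 6 fell, against 3.16% and 3.32%, with a median of 0.10. On this list 2 genes were called in opposite directions. FGF4, counted as higher, was at −0.85 after DOX and 1.88 after RA. PRDM14, a repressor of differentiation genes, fell by 0.88 (adjusted p = 0.0039), with −0.47 after DOX and −1.29 after RA. DNMT3A, the other de novo methyltransferase gene, rose by 0.46 (adjusted p = 7.8e-04), with 0.54 after DOX and 0.38 after RA, but was at 0.15 and not called with the mean of its probe sets. FGF2 rose by 0.33 (adjusted p = 0.024), from 0.90 after DOX and −0.24 after RA, and lost the call without the second untreated (0.27) or the second DOX array (0.31).

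Counts in the other lists are read against the 3.47% of all genes called higher and 3.8% called lower in the pooled comparison, and many of them rest on 1 or 2 genes. Mitotic genes were 0 higher and 6 lower of 27, with medians of −0.34 after DOX and 0.03 after RA; 16 fell after DOX and 0 after RA, against 9.6% and 3.32% of all genes. TTK and BUB1, kinase genes of the spindle checkpoint, were at −0.40 and −0.32, and cyclin B1 (CCNB1) at −0.33, with −0.46 after DOX and −0.20 after RA. TTK and BUB1 lost their calls without the first untreated array (−0.34 and −0.29), TTK also without the second (−0.40), BUB1 with the mean of its probe sets (−0.17) and CCNB1 without x_at and s_at probe sets (−0.18). Immediate-early genes were 12 higher and 0 lower of 17, with medians of 1.59 after DOX and −0.09 after RA, and EGR3, FOS and ATF3 at 1.51, 1.51 and 1.39; ATF3 was at 0.67 with the mean of its probe sets. FGF and ERK targets were 11 higher and 1 lower of 17, and 2 of them rose with both treatments, the phosphatase gene DUSP4 (0.77, 0.69) and the feedback inhibitor SPRY2 (0.74, 0.54). Genes of glycolysis and hypoxia were 4 higher and 1 lower of 17, led by ADM and VEGFA, with the glucose transporter gene SLC2A1 at 0.45 and NDRG1 at 0.50. SLC2A1 lost its call in 6 of the 9 fits without 1 array and was at 0.12 without x_at and s_at probe sets. NOTCH genes were 4 higher and 1 lower of 14, with the target HES1 at 1.08 and the receptor gene NOTCH1 at 0.81, both larger after DOX (1.79 and 1.22) than after RA (0.38 and 0.40). HES1 was at 0.07 and not called without x_at and s_at probe sets, and NOTCH1 was at 0.49 with the mean of its probe sets. Apoptosis genes were 4 higher and 1 lower of 13, with APAF1 at 0.69, BAX at 0.39 and MCL1 at 0.39; APAF1 was at 0.28 with the mean of its probe sets, and MCL1 was not called without x_at and s_at probe sets (0.36). Replication genes were 3 higher and 2 lower of 24, with CCND1 at 0.50, CCND2 at 0.43 and MCM6 at −0.40; CCND1 lost its call without the first untreated array (0.45), and CCND2 was at 0.28 with the mean of its probe sets. Anterior HOX genes were 1 higher and 0 lower of 10, and HOXB2 met the rule for both treatments (0.57 after DOX, 1.61 after RA). The neural crest list was 6 higher and 2 lower of 16, neuroectoderm 2 higher and 2 lower of 17, mesoderm and endoderm 1 higher and 1 lower of 18, WNT targets 1 higher and 0 lower of 13 and epithelial junctions 2 higher and 2 lower of 17. Chromatin and methylation genes were 2 higher and 2 lower of 19, MYC and ribosome biogenesis 2 higher and 0 lower of 18, NF-κB and cytokines 4 higher and 0 lower of 12, and heat shock and unfolded protein genes 2 higher and 0 lower of 14. DNA repair was 0 higher and 1 lower of 17, clustered histones 0 higher and 1 lower of 12, fibroblast and stromal genes 3 higher and 1 lower of 17, and cholesterol synthesis 0 higher and 0 lower of 11. Of the stem cell long noncoding RNA list only 2 genes were measured, with 0 higher and 0 lower. Of the genes that moved with both treatments, 21 of the 62 rising and 6 of the 74 falling stood on any of the 29 lists.

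**Figure D4:**
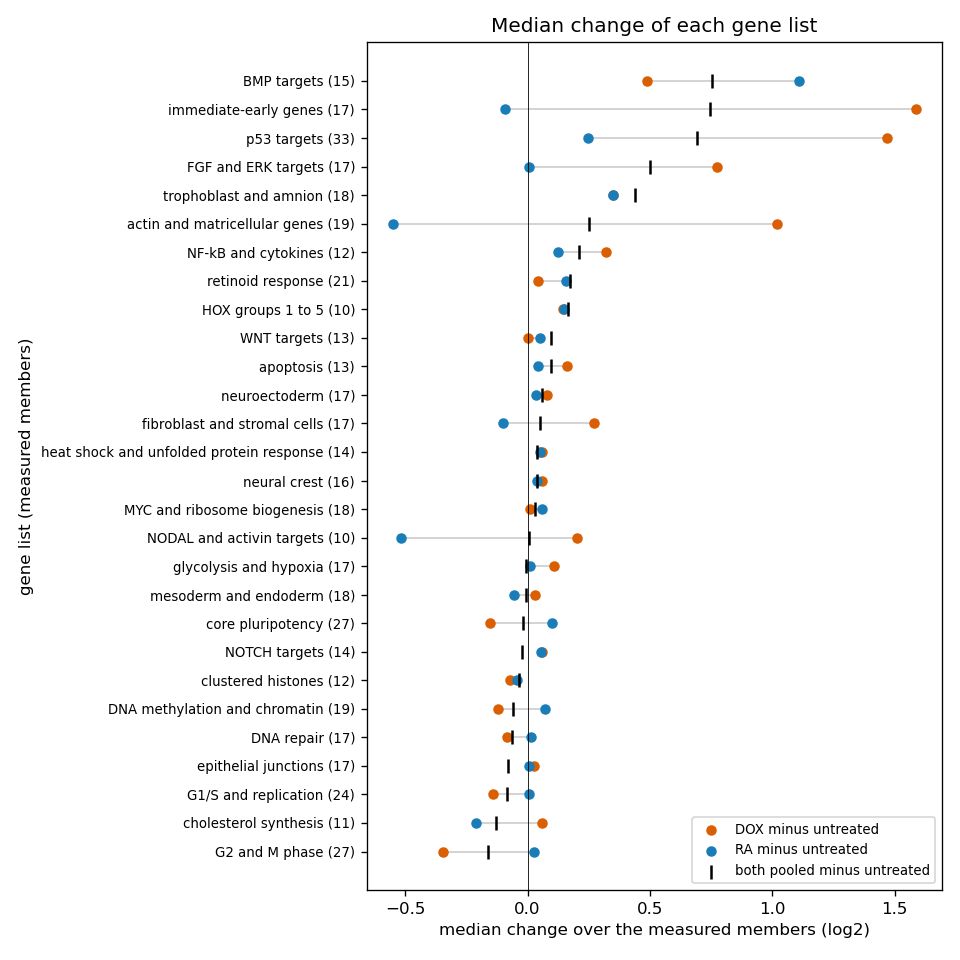
For each list with at least 10 measured members, points show the median log2 change after DOX and after RA, and a tick the median pooled change, against the untreated arrays. BMP targets lie above 0 with both treatments (0.49 and 1.11), while actin and matricellular genes lie at 1.02 after DOX and −0.55 after RA.

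Of the falling genes 85.1% lay above the median gene in untreated cells, against 50.1% of all genes, so comparisons with all genes are not matched for level. The falling genes shared features that the selection did not use directly, given here as descriptions with no test. Their genomic span had a median of 63.9 kb (quartiles 13.7 and 178.2 kb), against 24.7 kb over all genes (8.9 and 65.5 kb) and 14.2 kb for the rising genes (5.2 and 48.2 kb). A span over 100 kb was found in 41.9% of the falling, 19.4% of the rising and 16.9% of all genes. Genes lowered by RA alone (61.4 kb) and raised by RA alone (56.0 kb) had long spans too, those lowered by DOX alone were at 40.9 kb and those raised by DOX alone at 22.8 kb. Of the 74 falling genes 14 (18.92%) lay on chromosome 4, which held 4.01% of all tested genes, and of the 62 rising genes 11 (17.74%) lay on chromosome 1, which held 9.74%. These chromosomes held the most falling and the most rising genes, and were picked for it after all were counted. The chromosome 4 genes ran from ZNF518B and LDB2 through PCDH7, SHISA3, KDR, NPFFR2, MTHFD2L, FAT4, PCDH18, MGARP, LRAT and NPY1R to STOX2 and SORBS2 along the chromosome, and were not a single cluster. Promoter windows of the falling genes had a median GC content of 67.0%, against 63.0% over all and 62.7% for the rising genes, over 58, 15384 and 44 promoters. Higher values than over all genes were also found for genes raised (68.3%) or lowered (67.7%) by DOX alone and raised (64.3%) or lowered (66.0%) by RA alone.

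**Figure D5:**
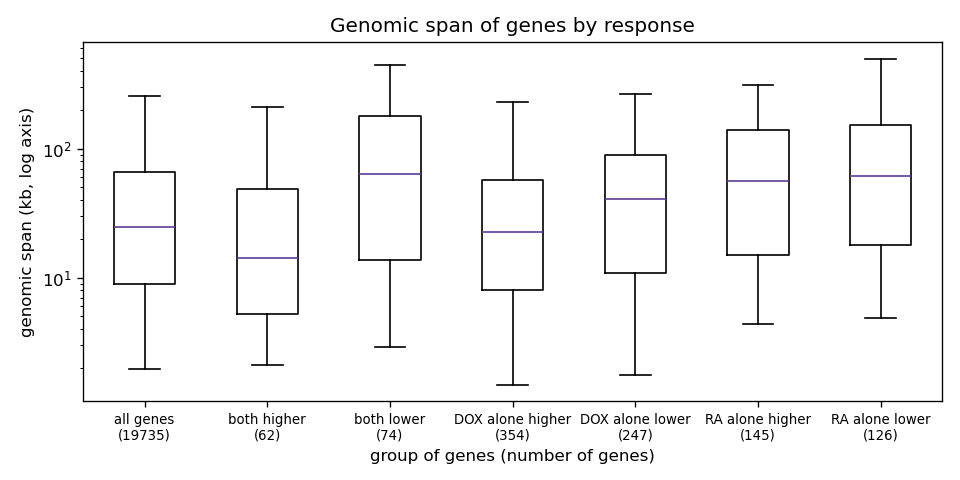
Boxes show the genomic span in kb (log axis) of all tested genes and of each response group, with the median, quartiles and whiskers at the 5th and 95th percentiles, for the genes that have a span in RefSeq. The median is 63.9 kb for genes that fell and 14.2 kb for genes that rose with both treatments.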

How the data were processed

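RNA of 9 samples was measured on Affymetrix arrays, and the authors deposited log2 intensities made with RMA from the affy package, per the submitters' processing notes, with no version recorded there. RMA subtracts background, quantile-normalizes and summarises probes, so small shifts of a whole array are removed. The values ran from 2.36 to 14.8, with array medians of 4.62 to 4.68. Probe sets were named through the platform annotation: 41091 named 1 gene, 1801 several and 11721 none, beside 62 control probe sets, and 41037 matched RefSeq. The probe set with the highest mean stood for each gene. A group-means model was fitted to 19775 genes with limma 3.58.1 in R 4.3.3 (lmFit, then eBayes; the residual degrees of freedom were 6 and the prior ones 4.63), with Benjamini-Hochberg adjustment at 0.05 and intervals at 95%. Genes changed with both treatments passed the pooled test, moved at least 0.5 the same way with each, and had no overlap of untreated and treated arrays. The 15 of them with the largest smaller change in each direction were named, with 5 in each direction for each treatment alone and for opposite changes, up to 4 called members per gene list, and a fixed set of markers and targets. Other genes were named after their values were seen. Members and lists were chosen with earlier results of these data known. The fit was tested on simulated data. The alternatives were other probe set rules, normalizations, spreads, array weights, a replicate block, other sizes and leaving out each array.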

Additional observations from a re-analysis of the deposited data

Results flagged for a closer look

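Among genes that DOX and RA moved in opposite directions, the 5 in each direction with the largest smaller change are given here. In each of them limma's test of RA minus DOX, on the log2 scale over 3 arrays against 3, passed. Their choice by large opposite changes made that pass all but certain, so it adds no support and the values describe size only. The RA arrays lay below the DOX arrays in EGR1 (−5.14, adjusted p = 6.0e-09), ANXA1 (−3.72, adjusted p = 7.7e-09), TAGLN (−3.36, adjusted p = 7.0e-09), COL12A1 (−3.10, adjusted p = 1.3e-06), CAV1 (−3.53, adjusted p = 1.1e-08). They lay above in LPAR3 (2.30, adjusted p = 3.8e-06), STON1 (2.13, adjusted p = 5.0e-06), MAML3 (2.05, adjusted p = 7.5e-06), INHBE (1.93, adjusted p = 4.6e-05), FGF4 (2.72, adjusted p = 2.8e-07).

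Probe sets that the comparison left out also carried pooled changes. They were called in a separate fit, with adjustment over all probe sets but controls. Of 1801 that name several genes 32 were higher and 19 lower, and of 11721 that name none 78 were higher and 38 lower. These transcripts were not described further.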

How the results depend on the processing

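Of the 136 named genes none changed its call with array weights or with each array centred, and 94 lost it when the 6 treated arrays formed 1 group. In that fit 42 genes were higher and 76 lower, 29 and 38 changed with both treatments, and 14 and 13 were carried by DOX and RA. With array weights 1369 genes were lower. The mean of all probe sets left 40 higher and 41 lower genes changed with both treatments. Leaving out probe sets of suffixes x_at and s_at gave 471 lower genes and 74 raised by DOX and lowered by RA. For both treatments a size of 0.25 gave 194 and 268, a size of 1 gave 12 and 12, and a call in each of DOX and RA gave 129 and 175. Leaving out 1 array gave 454 to 629 higher and 312 to 903 lower genes, 53 to 75 and 61 to 106 changed with both, 360 to 740 carried by DOX and 178 to 273 by RA, and 85 to 125 and 46 to 100 moved in opposite directions. The 312 and 360 came without the second untreated array, the 454, 178, 61, 75, 85 and 46 without the first, and the 903, 106, 740 and 53 without the third; the cause was not tested. Same-numbered arrays had deviations correlated from −0.103 to 0.199, most of them above 0, and differently numbered ones from −0.247 to 0.133. These overlapping ranges do not settle whether the numbers mark pairs. The main fit did not read them as pairs, and the replicate block gave 681 higher and 760 lower, 62 and 74 of them changed with both. Pooled changes that turned sign were mostly near 0 in the main fit. The exceptions were C11orf96 (2.49) and DLK1 (0.95), both called higher there. With the mean of probe sets ANXA1 was at 0.011, COL12A1 at 0.1037 and TAGLN at 0.1751, and without x_at and s_at probe sets TAGLN was at 0.6518 (adjusted p = 0.00521), C11orf96 at −0.0469 and DLK1 at −0.0351. DPPA4 was at 0.0089 after quantile normalization. Over the fits without 1 array ANXA1 ran from −0.1498 to 0.0192, COL12A1 from −0.1288 to 0.0647, DPPA4 from −0.0573 to 0.0447, INHBE from −0.0435 to 0.236, LIN28A from −0.013 to 0.1344, MAML3 from −0.335 to 0.0174 and STON1 from −0.3452 to 0.0023. Genes of low signal, 1 probe set and 3 arrays a group limit these results.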
